A study of Mus musculus with 6 samples.

Results

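The BCL2 family decides whether the outer mitochondrial membrane stays intact or is opened during apoptosis. The 10 members described here were taken by symbol, matched through their Ensembl gene IDs: the anti-apoptotic genes Bcl2, Bcl2l1 (BCL-XL) and Mcl1, the pore-forming effectors Bax and Bak1, and the BH3-only genes Bbc3 (PUMA), Pmaip1 (NOXA), Bcl2l11 (BIM), Bid and Bad. The 4 that the results turn on are Bcl2 (ENSMUSG00000057329), Bcl2l1 (ENSMUSG00000007659), Bax (ENSMUSG00000003873) and Bbc3 (ENSMUSG00000002083). All 10 were found once among the 47069 Ensembl genes that both deposited tables share. Their expression was followed in 6 RNA-seq libraries of regulatory T cells from mice, the suppressive CD4 T cells that express the transcription factor Foxp3.

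All cells came from mice with a Cre recombinase expressed under Foxp3, in lymph node and spleen. The Het mice were taken to be Foxp3Cre Noc4l+/fl and the cKO (conditional knockout) mice Foxp3Cre Noc4lfl/fl, following the Het or KO in each library's title. The labels conflict here, as their passage on sorting gives both genotypes as Foxp3Cre Noc4l+/fl. On either reading every library carries the Cre and at least 1 floxed Noc4l allele. Cells were sorted as CD4+GFP+CD62Lhigh and activated with Dynabeads (magnetic beads) for 48 h or 72 h. At 48 h there was 1 library of each genotype, and at 72 h there were 2. The libraries are called Het 1 and cKO 2 (48 h and 72 h, in the first table) and Het 3 and cKO 4 (72 h, in the second table). The labels used here give neither the age and sex of the mice nor whether libraries stem from separate animals. The p-values therefore cannot be taken to measure a spread between animals. Each SE and p-value rests on variances moderated across all genes tested, not on a gene's own spread between these libraries alone.

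As background, BAX and BAK form pores that release cytochrome c, which starts the caspase cascade through APAF1. BCL2, BCL-XL and MCL1 hold BAX, BAK and the BH3-only proteins in check, and BH3-only proteins are the stress sensors that bind and neutralize them or activate BAX and BAK directly. In T cells, BCL-XL is induced by antigen receptor and CD28 signals, BCL2 is kept up by common gamma chain cytokines, MCL1 is a short-lived protein on which regulatory T cells depend, and Bbc3, Pmaip1 and Bax are known targets of the transcription factor p53.

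The targeted gene went against the genotype labels. Noc4l stood at 99.1 FPKM (fragments scaled to gene length and library size) in Het 1 and 124 in cKO 2 at 48 h. At 72 h it was 48.8 and 81.7 in the same replicates and 40.8 and 58.1 in Het 3 and cKO 4. Genotypes below are therefore those of the labels, and since each table gives 1 value per gene, loss of the floxed part could not be read. Estimated depth was 16.5 to 28.7 M (mega) fragments per library. The regulatory T cell markers Foxp3, Il2ra, Ikzf2, Ctla4, Tnfrsf18, Cd4 and Cd3e were above 0 in every library and summed to 2851 to 3603 FPKM. The 6 neutrophil markers summed to 390 and 341 FPKM in cKO 2 at 48 h and 72 h, against 21.5 to 75.3 in the other 4 libraries. In Het 3 and cKO 4, S100a8, S100a9, Camp and Lcn2 were at 0, and lactoferrin (Ltf), found in all libraries, made up nearly the whole sum. In Het 1, Ltf was likewise 43.5 of 43.9 FPKM at 48 h and 38.2 of 38.5 at 72 h. In cKO 2 it was 102 of 390 and 107 of 341. The 5 B cell markers summed to 83.5 in cKO 2 at 72 h and to 8.18 to 22.6 in the others, and the 2 CD8 markers to 31.8 (Het 1) and 58.2 (cKO 2) FPKM at 72 h, compared with 5.25 to 6.92 elsewhere. The macrophage, erythroid, NK and dendritic cell markers summed at most to 43.4, 30.1, 16.2 and 2.22 FPKM, with 0 to 2 of each list's markers at 0 in a library. In such bulk samples, a change in the share of a cell type and a change in RNA per cell cannot be told apart.

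Mcl1 and Bax were the most abundant members in every library. Mcl1 ranged from 231 to 413 FPKM and Bax from 149 to 329, which put both at or above the 94th percentile of the genes with at least 1 FPKM in the same library. Pmaip1 was last in all 6 libraries, at 7.46 to 14.5 FPKM. Between these ends the order depended on genotype and time. In both Het libraries at 72 h, Bax (152 and 149 FPKM) was followed by Bcl2 (138 and 143), and then, with overlapping ranges, by Bbc3, Bak1, Bcl2l1 and Bcl2l11, all between 20.1 and 50.8. In the 72 h libraries labelled cKO, Bbc3 (97.4 and 125), Bcl2l1 (137 and 70.9) and Bcl2 (82.4 and 85.8) lay close together, and the range of Bcl2l1 held that of both others. Mcl1 (279 and 404) and Bax (329 and 272) overlapped there, while in Het at 72 h Mcl1 stood clear of Bax. Bid and Bad overlapped at 20.1 to 22.8 FPKM in cKO but not in Het, where Bad was at 19.9 and 19.6 and Bid at 13.4 and 16.7. The fewest fragments behind any member's value were an estimated 334 for Bad in cKO 4, a counting error of 5.47%.

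**Figure D1:**
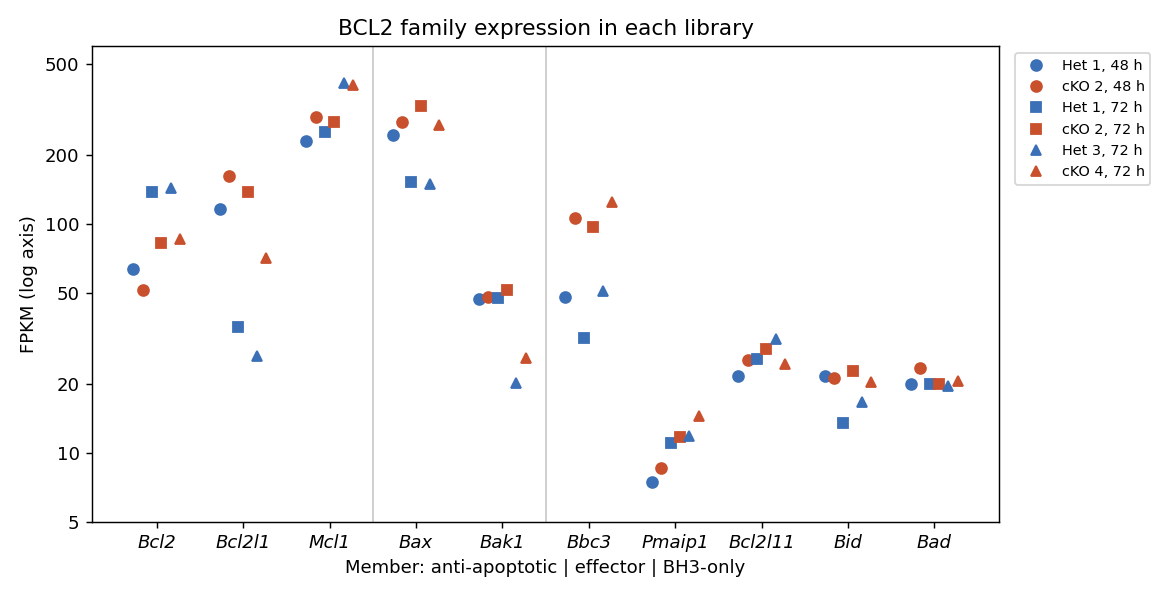
Expression of the 10 members (horizontal axis, grouped by role) in FPKM on a log axis, 1 point per library, with blue for Het, red for cKO, circles for 48 h, squares for replicates 1 and 2 at 72 h and triangles for replicates 3 and 4. Both blue 72 h points of Bcl2 lie above both red ones, those of Bcl2l1, Bax and Bbc3 lie below, and the squares and triangles of Bak1 are apart by table.

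At 72 h, the members with the largest differences between genotypes were Bcl2l1, Bbc3 and Bax, with more transcript in the libraries labelled cKO, and Bcl2, with less. Bcl2l1 was 2.69 to 3.88 times as high in cKO as in Het, Bbc3 2.45 to 3.08 times and Bax 1.82 to 2.16 times, while Bcl2 was 1.67 and 1.68 times as high in Het. Differences were tested with limma on log2(FPKM + 1) with the table as a term, a scale that understates changes of low genes. No member passed an adjusted p of 0.05, and neither did any of the 12488 genes tested (0.0%), of which 17.3% lay under an unadjusted p of 0.05. The fit leaves 1 residual degree of freedom. On simulated data it recovered only 5.4% of planted log2 changes of 1 after adjustment. The lack of adjusted calls therefore cannot decide whether members changed by about that much. Fits with 1 library left out also drop the table term and leave 1 library in a genotype, so the spread within that genotype is unmeasured. Their counts of genes past an adjusted p of 0.05 are therefore not given. Under an unadjusted p of 0.05 lay 4 members as higher (Bcl2l1, Bbc3, Bax and Bid), beside 10.3% of all genes tested, and 1 as lower (Bcl2), beside 6.99%. Bid no longer lay under it with quantile normalization, median centring, no variance trend or no table term, nor with the table term dropped and any of the 4 libraries left out. With the table term dropped and Het 1 or Het 3 left out, Bcl2 and Bax no longer did either. The 10 members had a median log2 fold change of 0.21, against 0.08 for all genes tested.

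Among the anti-apoptotic genes, Bcl2 and Bcl2l1 went opposite ways. Bcl2, the founding member, was at 138 and 143 FPKM in Het 1 and Het 3 and at 82.4 and 85.8 in cKO 2 and cKO 4, so the replicates of a genotype were nearly alike and the genotypes did not overlap. The estimate was -0.74 ± 0.12 on the log2 scale (SE, 2 libraries per genotype, limma adjusted p = 0.143). Bcl2l1 was at 35.5 and 26.4 FPKM in Het, against 137 and 70.9 in cKO. The groups did not overlap, although cKO 2 was far above cKO 4, and the estimate was 1.66 ± 0.18 (SE, limma adjusted p = 0.111). With 1 library left out and no table term, which leaves 1 library in a genotype, the estimate for Bcl2l1 ran from 1.19 to 2.13. Over the alternatives that kept every library, its limma adjusted p ran from 0.0828 (no filter) to 0.327 (no table term). Mcl1 was at 253 and 279 FPKM in Het 1 and cKO 2 and at 413 and 404 in Het 3 and cKO 4. Mcl1 thus differed more between tables than between genotypes, and its log2 fold change of 0.06 ± 0.13 (SE) was -0.04 with each library centred on its median and -0.03 in the pair of replicates 3 and 4.

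Of the effectors, Bax was at 152 and 149 FPKM in Het, against 329 and 272 in cKO. The Het replicates were 1 narrow level and both cKO libraries stood well above it, and the estimate was 0.98 ± 0.14 (SE, limma adjusted p = 0.122). Bak1, whose product opens the same membrane, was at 47.3 and 51.5 FPKM in Het 1 and cKO 2 and at 20.1 and 25.9 in Het 3 and cKO 4. Its values followed the table, and the estimate was 0.24 ± 0.14 (SE, limma adjusted p = 0.431). With the table term dropped and Het 3 or cKO 2 left out, the sign of Bak1 turned (-0.36 and -0.25). By the mouse annotation GENCODE M21, 18.2% of the exonic bases of Bak1 also belong to the opposite-strand gene Ggnbp1, which was at 1.13 to 2.21 FPKM, and 12.2% of those of Bax to the gene model Gm45808. The labels do not say whether counting used strand, so reads of Bak1 and Ggnbp1 in the shared bases cannot be told apart. Gm45808 lies on the same strand as Bax and has no value of its own here, so a strand setting would not separate its reads.

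Among the BH3-only genes, Bbc3 stood apart from the other 4. Bbc3, which binds every anti-apoptotic member, was at 31.6 and 50.8 FPKM in Het 1 and Het 3 and at 97.4 and 125 in cKO 2 and cKO 4. The lowest cKO value was well above the highest Het value, and the estimate was 1.43 ± 0.14 (SE, limma adjusted p = 0.106, rank 71 by p among all genes tested). With 1 library left out and no table term, which leaves 1 library in a genotype, the estimate for Bbc3 ran from 1.1 to 1.77. Over the alternatives that kept every library, its limma adjusted p ran from 0.0826 (quantile normalization) to 0.29 (no table term). Bid, which links death receptors to mitochondria once cut by caspase 8, was at 13.4 and 16.7 FPKM in Het, against 22.8 and 20.4 in cKO. The groups did not overlap, but the pair of replicates 1 and 2 gave most of the difference (log2 ratio 0.72 against 0.28), and the estimate was 0.50 ± 0.17 (SE, limma adjusted p = 0.277). Pmaip1, which mainly neutralizes MCL1, was at 10.98 and 11.8 FPKM in Het, against 11.7 and 14.5 in cKO, with overlapping groups and a log2 fold change of 0.18 ± 0.14 (SE). Bcl2l11, the sensor of cytokine withdrawal, was at 25.6 and 31.5 FPKM in Het, against 28.3 and 24.5 in cKO, and the pairs pointed opposite ways (0.14 and -0.35). Bad, which is held inactive by phosphorylation, was at 19.9 and 19.6 FPKM in Het, against 20.1 and 20.6 in cKO, a log2 fold change of 0.04 ± 0.13 (SE) that was -0.05 under quantile normalization and under median centring. Exons of Bid overlap those of Bcl2l13 on the opposite strand (17.7% of its exonic bases) and exons of Bad those of Gpr137 (20.5%). Bcl2l13 was at 24.3 to 27.4 FPKM at 72 h, and Gpr137 reached 12.2 in cKO 4, against 6.07 in Het 3.

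Compared within each pair at 72 h, 7 members were higher in cKO in both pairs, beside 42.4% of genes tested, and Bcl2 was lower, beside 24.6%. At least 2-fold on the log2(FPKM + 1) scale, Bcl2l1, Bax and Bbc3 were higher in replicates 1 and 2 (4.16% of 9257 genes averaging 5 FPKM or more) and Bcl2l1 and Bbc3 in replicates 3 and 4 (2.31% of 9386). No member was lower by that much, beside 3.51% and 1.4% of genes. Counted by groups that did not overlap, 5 members (Bcl2l1, Bax, Bbc3, Bid and Bad) were higher in both libraries labelled cKO, beside 24.9% of all genes tested, and Bcl2 was lower, beside 13.8%. The neutrophil and B cell markers that were high in cKO 2 were at 75.3 FPKM (all of it Ltf) and 8.18 in cKO 4, against 21.5 and 9.11 in Het 3. In that pair, Bcl2 was 1.67 times as high in Het, and Bbc3, Bcl2l1 and Bax were 2.45, 2.69 and 1.82 times as high in cKO. What part RNA of other cell types had in the ratios of either pair was not tested.

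**Figure D2:**
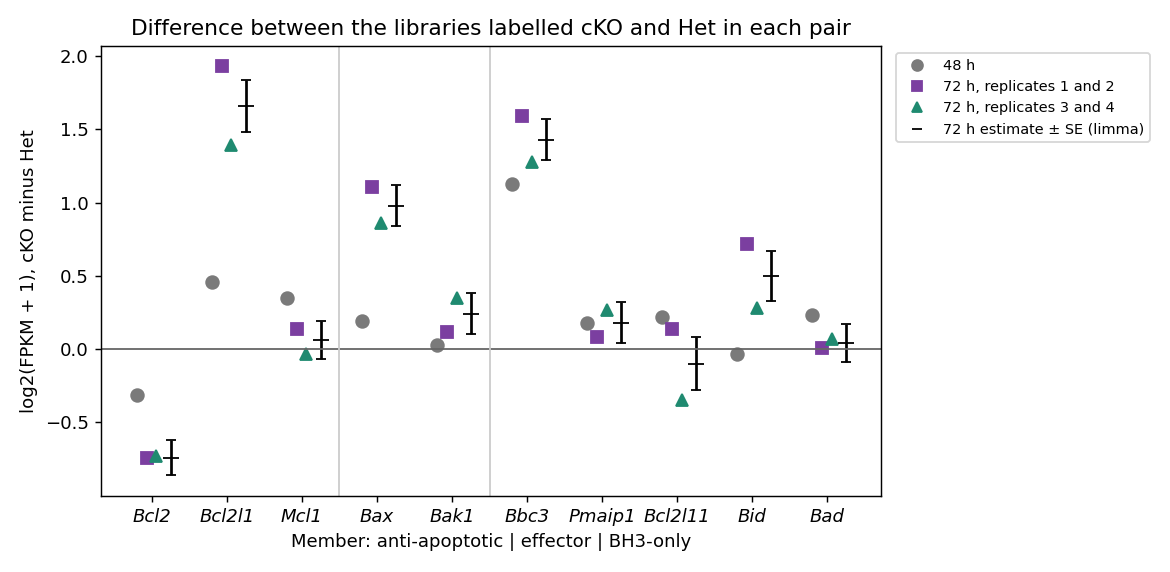
Difference of log2(FPKM + 1) between the libraries labelled cKO and Het for each member (horizontal axis) in the 3 pairs of libraries, with the limma estimate for 72 h and its SE in black. Bbc3 lies at 1.13 to 1.59 in all 3 pairs, Bcl2l1 and Bax are much further from 0 at 72 h than at 48 h, and Mcl1 and Bcl2l11 fall on both sides of 0.

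Bbc3 and Bax, named above with Pmaip1 as known p53 targets, have RefSeq promoters (build GRCm38.p6) with a stretch that resembles the p53 consensus, and these are shown for that reason. The 250 bases before an annotated start are printed 5′ to 3′ on the gene's strand, with the 20 bases nearest to the p53 consensus in capitals. The Bbc3 sequence is chr7:16309333-16309582 on the plus strand, before the first of its 3 annotated starts, and the Bax sequence is chr7:45466899-45467148 on the minus strand.
Bbc3: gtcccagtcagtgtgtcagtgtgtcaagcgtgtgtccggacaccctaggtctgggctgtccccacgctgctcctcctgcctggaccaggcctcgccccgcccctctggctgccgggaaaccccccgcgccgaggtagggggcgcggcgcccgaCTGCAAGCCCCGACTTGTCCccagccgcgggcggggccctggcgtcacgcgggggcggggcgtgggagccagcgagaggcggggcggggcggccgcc
Bax: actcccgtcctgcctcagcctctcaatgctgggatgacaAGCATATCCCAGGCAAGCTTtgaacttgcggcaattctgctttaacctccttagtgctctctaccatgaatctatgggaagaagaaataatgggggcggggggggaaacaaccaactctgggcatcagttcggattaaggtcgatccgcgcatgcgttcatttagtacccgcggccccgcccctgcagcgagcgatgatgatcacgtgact
The capitals span positions -97 to -78 before the start in Bbc3 and -211 to -192 in Bax. The consensus, a pair of adjoining 10-base half-sites, reads the same on both strands and was searched without a spacer. Each capital stretch departs from it at 3 of 20 bases, and the second 10 bases of the Bax stretch match a half-site exactly. Before the other annotated starts of Bbc3, the best stretch departed at 5 and at 8 bases. A stretch with at most 3 departures is found in 5.32% of 32851 RefSeq promoters of this length, and an exact half-site in 7.13%. The best stretch departed at 4 bases in Bcl2l1 and in Bad, at 5 in Mcl1 and Bcl2l11, at 6 in Bak1 and Bid and at 7 in Bcl2. The search covered 15 promoters of 9 members. Pmaip1 had no promoter entry, so its promoter was not searched. A match describes these letters only.

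At 48 h, with 1 library per genotype and no test, Bbc3 had the largest ratio. It was at 47.9 FPKM in Het 1 and 106 in cKO 2, a ratio of 2.21, and the only member past 2-fold on the log2(FPKM + 1) scale, where 0.55% of 9084 genes were this much higher in cKO and 0.33% this much lower. Bcl2l1 was at 117 and 161 FPKM (ratio 1.38), Bax at 245 and 279 (1.14) and Bcl2 at 63.7 and 51.2 (0.804). These 3 had the direction seen at 72 h and lay closer to a ratio of 1. Mcl1 was at 231 and 294 FPKM, Bad at 19.9 and 23.6, Bcl2l11 at 21.6 and 25.3, Pmaip1 at 7.46 and 8.59, Bak1 at 47.0 and 47.9 and Bid at 21.6 and 21.2. The neutrophil markers summed to 43.9 FPKM in this Het library, of which Ltf was 43.5, and to 390 in the one labelled cKO, of which Ltf was 102. S100a9, for example, was at 0.202 and 110 FPKM. The part of neutrophil RNA in the 48 h ratios was not tested.

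Across the 2 times together, in a fit of all 6 libraries with terms for time and table, the same 4 members lay furthest from 0. Bbc3 stood at 1.33 ± 0.13 on the log2 scale (SE, limma adjusted p = 0.343), with cKO above Het in 3 of 3 pairs. It ranked 2 by p among 12394 genes. The fit has no replicate term, and the 48 h pair carries the same replicate numbers as a 72 h pair, so the pairs may not be independent. Bcl2l1 stood at 1.26 ± 0.28, Bax at 0.72 ± 0.19 and Bcl2 at -0.59 ± 0.13 (SE, limma adjusted p = 0.343 for each). No gene passed (0.0%), 13.3% lay under an unadjusted p of 0.05, and 7 passed without Het 3 or without cKO 4. Under an unadjusted p of 0.05 lay 3 members as higher, beside 8.04% of the genes tested, and 1 as lower, beside 5.28%. In all 3 pairs, 6 members were higher in cKO (Bcl2l1, Bax, Bak1, Bbc3, Pmaip1 and Bad), beside 23.5% of genes, and Bcl2 was lower, beside 14.7%. For Bak1, Pmaip1 and Bad the estimates were only 0.17 ± 0.11, 0.18 ± 0.12 and 0.10 ± 0.11 (SE).

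From 48 h to 72 h, the order of Bcl2 and Bcl2l1 was turned over in the Het libraries. Bcl2 went from 63.7 to 138 FPKM and Bcl2l1 from 117 to 35.5 in Het 1. In cKO 2, Bcl2 went from 51.2 to 82.4 and Bcl2l1 only from 161 to 137. Bcl2 thus had more transcript at 72 h in both genotypes, by 2.18 and 1.61 times, whereas Bcl2l1 was 3.29 times lower in Het and 1.17 times lower in cKO. Bax went from 245 to 152 FPKM in Het 1 and from 279 to 329 in cKO 2, and Bid from 21.6 to 13.4 and from 21.2 to 22.8. Both had less transcript at 72 h in Het and slightly more in cKO. Bbc3 went from 47.9 to 31.6 FPKM in Het and from 106 to 97.4 in cKO, and Pmaip1 from 7.46 to 10.98 and from 8.59 to 11.7. Mcl1, Bak1, Bcl2l11 and Bad were within 1.18 times of their 48 h level in either genotype. On the log2(FPKM + 1) scale Bcl2 was at least 2-fold higher at 72 h in Het (3.82% of 9140 genes averaging 5 FPKM or more) and Bcl2l1 at least 2-fold lower (2.31%). In cKO no member was past 2-fold either way, beside 2.12% and 0.554% of 9207 genes.

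In the fit for time, with terms for genotype and table, Bcl2 had an estimate of 0.89 ± 0.16 on the log2 scale (SE, limma adjusted p = 0.271), Pmaip1 of 0.45 ± 0.14 (limma adjusted p = 0.402) and Bcl2l1 of -0.96 ± 0.34 (limma adjusted p = 0.434). The estimate rests on the table that holds both times. Of 12394 genes 3 passed (0.0242%), and none was a member, while 11.1% lay under an unadjusted p of 0.05. Without either 48 h library 0 passed, and without Het 1 at 72 h 1 passed. The 3, named after their values were seen, were Gzmb, Tgm2 and Cd8a, of which Cd8a marks CD8 T cells and went from 0.466 to 20.3 FPKM in Het 1. Under an unadjusted p of 0.05 lay 2 members as higher at 72 h (Bcl2 and Pmaip1), beside 6.45% of genes, and 1 as lower (Bcl2l1), beside 4.63%. The estimate for Bcl2l1 was -0.36 without Het 1 at 48 h, -0.46 without Het 1 at 72 h, -1.56 without cKO 2 at 48 h and -1.46 without cKO 2 at 72 h. Without either Het 1 library it no longer lay under an unadjusted p of 0.05. The estimate for Bax, -0.23, was 0.17 without Het 1 at 48 h, 0.07 without Het 1 at 72 h, -0.62 without cKO 2 at 48 h and -0.52 without cKO 2 at 72 h. Pmaip1 lay under an unadjusted p of 0.05 with 1 library left out only when that was cKO 2 at 72 h.

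Whether the genotype difference itself changed between 48 h and 72 h was tested with an interaction term. It was 1.20 ± 0.31 (SE, limma adjusted p = 0.812) on the log2 scale for Bcl2l1, 0.79 ± 0.23 (limma adjusted p = 0.828) for Bax and 0.53 ± 0.29 (limma adjusted p = 0.856) for Bid. For Bcl2 it was -0.43 ± 0.20 and for Bbc3 0.31 ± 0.25 (limma adjusted p = 0.856 and 0.859). No gene passed (0.0%), and 5.71% lay under an unadjusted p of 0.05. Among them were 2 members, Bcl2l1 and Bax, as more positive at 72 h, beside 3.43% of genes, and no member as more negative, beside 2.28%. This fit has 1 residual degree of freedom, and its lack of calls says nothing on whether the genotype difference was alike at both times.

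**Figure D3:**
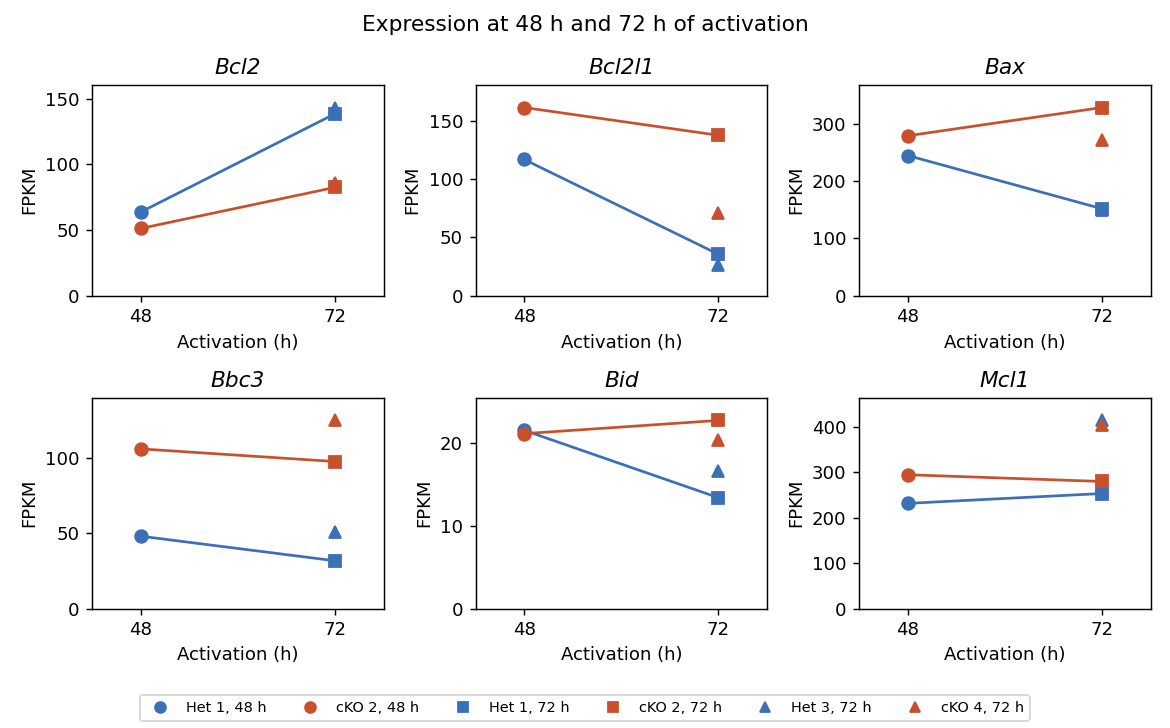
FPKM of 6 members at 48 h and 72 h of activation, with lines joining replicate 1 (Het, blue) and replicate 2 (cKO, red) across the times and triangles for replicates 3 and 4. The blue lines of Bcl2l1, Bax and Bid slope down more than the red ones, of which those of Bax and Bid slope up, and both lines of Bcl2 slope up, from 63.7 to 138 FPKM in Het and from 51.2 to 82.4 in cKO.

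Ratios within a library compare the transcripts of members, not their proteins. FPKM is scaled to gene length, but the lengths used are not given in the labels, so the size of a ratio between genes is approximate. At 48 h Bcl2 was 0.545 times Bcl2l1 in Het 1 and 0.317 times in cKO 2. At 72 h the ratio was 3.91 and 5.42 in Het 1 and Het 3, but 0.5998 and 1.21 in cKO 2 and cKO 4. Bcl2 led over Bcl2l1 in the 72 h Het libraries, and the 72 h cKO libraries lay between these and the 48 h libraries. Bcl2l1 made up 8.31% and 4.53% of the summed FPKM of the 3 anti-apoptotic genes in Het at 72 h, 27.5% and 12.6% in cKO at 72 h, and 28.4% and 31.8% at 48 h. The sum itself did not separate the genotypes at 72 h, with 427 and 583 FPKM in Het and 499 and 561 in cKO. Mcl1 made up 55.9% to 72.1% of it over the 6 libraries, and Bcl2 and Bcl2l1 alone summed to 174 and 170 FPKM in Het at 72 h and 220 and 157 in cKO, which did not separate the genotypes either.

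Bax was 1.10 and 1.04 times Bcl2 in Het at 72 h and 3.99 and 3.17 times in cKO, beside 3.85 and 5.46 in the 48 h libraries. Among the BH3-only genes, Bbc3 was 1.24 and 1.61 times Bcl2l11 in Het at 72 h and 3.44 and 5.09 times in cKO. Bbc3 supplied 31.2% and 39.0% of the summed BH3-only FPKM in Het and 54.0% and 60.9% in cKO. Bbc3 over Bcl2l1 was 0.893 and 1.92 in Het at 72 h and 0.708 and 1.76 in cKO, so that at 72 h it differed more between tables than between genotypes. At 48 h it was 0.411 in Het 1 and 0.656 in cKO 2.

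**Figure D4:**
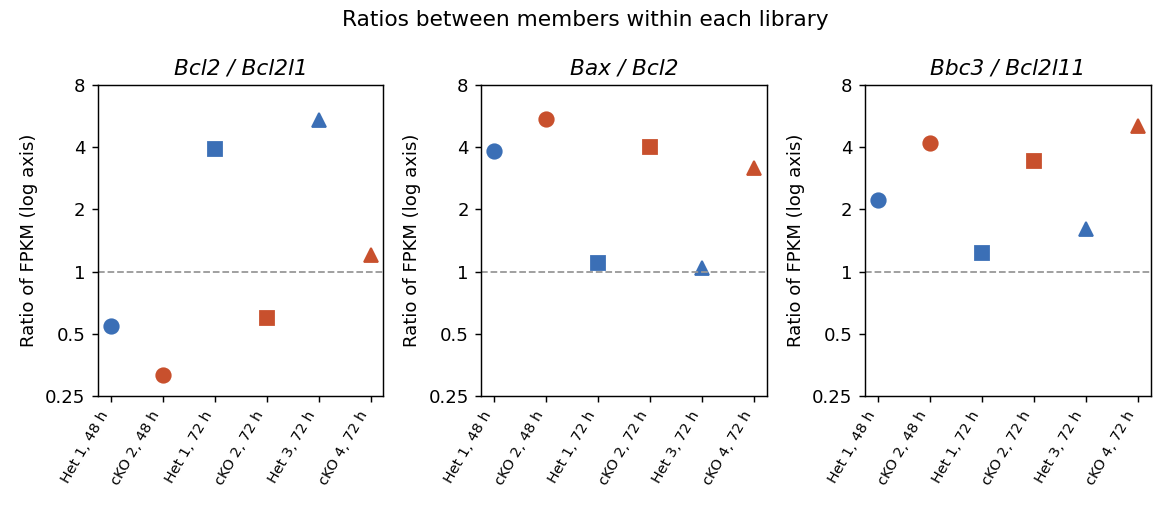
Ratios of FPKM between members within each of the 6 libraries, on a log axis with a dashed line at 1, coloured by genotype. Bcl2 over Bcl2l1 is 3.91 and 5.42 in the 72 h Het libraries and 0.317 to 1.21 in all others, and Bax over Bcl2 is close to 1 in the 72 h Het libraries only.

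Other genes of the family were read from a fixed list. Of 5 further anti-apoptotic genes, Bcl2a1d and Bcl2l2 reached a mean of 1 FPKM at 72 h. Bcl2a1d, 1 of several near-identical A1 copies whose reads counting may split, was at 1.83 and 1.001 FPKM in Het, against 17.7 and 4.65 in cKO (log2 fold change 2.11 ± 0.36, SE, limma adjusted p = 0.146), and at 11.2 and 13.5 at 48 h. Its levels thus followed the pattern of Bcl2l1, high at 48 h and low in Het at 72 h. A1 is also made by neutrophils, whose markers were high in cKO 2, and their part in these values was not tested. Bcl2l2 (BCL-W) was at 7.70 and 8.05 FPKM in Het, against 8.30 and 12.2 in cKO.

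Of 9 further pro-apoptotic or BH3-like genes 6 were tested, 2 higher and 4 lower, with a median of -0.55 against 0.08 for all genes. The mitophagy receptor Bnip3 was at 405 and 279 FPKM in Het, against 143 and 134 in cKO (-1.27 ± 0.16 on the log2 scale, SE, limma adjusted p = 0.121). Its relative Bnip3l was at 176 and 134 FPKM in Het, against 101 and 91.7 in cKO (-0.67 ± 0.14, SE). Bnip3 was above all 5 BH3-only members in every library, and both genes were higher in Het, the direction of Bcl2 and not that of Bbc3. Bmf, a BH3-only sensor, stood at -0.44 ± 0.17 (SE) and Bcl2l13 at 0.08 ± 0.13 (SE).

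Downstream of the family, 13 caspase and apoptosome genes had a median log2 fold change of 0.18, with 10 higher and 3 lower, and 3 of the higher lay under an unadjusted p of 0.05, beside 10.3% of all genes. The protease Htra2 was at 16.9 and 16.7 FPKM in Het, against 29.5 and 25.6 in cKO (0.68 ± 0.13, SE, limma adjusted p = 0.168). Cytochrome c (Cycs) was at 59.7 and 44.0 FPKM in Het, against 108 and 52.7 in cKO. Casp2 stood at -0.36 ± 0.13 (SE). The 6 inhibitor of apoptosis genes had a median of 0.10, close to that of all genes. Birc2 was the only one of the 6 under an unadjusted p of 0.05 (0.40 ± 0.12, SE, beside the same 10.3%), and Birc3, Birc6 and Xiap stood at 0.17, -0.04 and -0.02.

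The death receptor genes were split, 4 higher and 5 lower, with a median of -0.07. Under an unadjusted p of 0.05 lay 3 of the higher, beside 10.3% of all genes, and 1 of the lower, beside 6.99%. The receptor Fas was at 21.5 and 20.02 FPKM in Het, against 42.5 and 32.3 in cKO (0.81 ± 0.14, SE, limma adjusted p = 0.156), and Tnfrsf10b, the mouse TRAIL receptor, stood at 0.92 ± 0.24 (SE). Tnfrsf1a and the initiator Casp8 stood at -0.37 ± 0.12 and -0.35 ± 0.13 (SE). Fas, Tnfrsf10b and Mdm2 are also p53 targets and count again in the list of p53 targets outside the 10 members. Of its 15 genes tested, 14 were higher and all 14 lay under an unadjusted p of 0.05 (10.3% of all genes), with a median of 0.92. Bbc3 at 1.43 and Bax at 0.98 lay within their range, which ran up to Phlda3 at 2.0 ± 0.12 and Psrc1 at 1.99 ± 0.12 (SE), while Pmaip1 at 0.18 lay below each of those 14. Zmat3 and Sesn2 stood at 1.96 and 1.77. The list was chosen with earlier results of these data known and is no independent evidence of direction.

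Of 14 transcriptional regulators of the family, 11 were higher and 3 lower, with a median of 0.10. Stat5a, which relays interleukin 2 signals, was at 52.4 and 51.5 FPKM in Het, against 115 and 95.5 in cKO (1.0 ± 0.14, SE, limma adjusted p = 0.122). The NF-kappaB subunit Rel was at 13.2 and 10.7 FPKM in Het, against 33.6 and 18.9 in cKO (1.03 ± 0.18, SE, limma adjusted p = 0.154). As for Bcl2l1, Rel was higher at 48 h (37.9 and 37.7 FPKM) than in Het at 72 h. The p53 gene itself, Trp53, was at 89.0 and 101 FPKM in Het, against 126 and 100.4 in cKO, without separation of the genotypes, and Mdm2, its inhibitor and target, stood at 0.37 ± 0.13 (SE). Among 9 genes for MCL1 turnover and family modulators the median was 0.19, and the survival kinase gene Pim1 stood at -0.43 ± 0.15, Vdac2 at 0.36 ± 0.15, Tpt1 at -0.31 ± 0.15 and Bag1 at 0.19 ± 0.12 (SE).

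**Figure D5:**
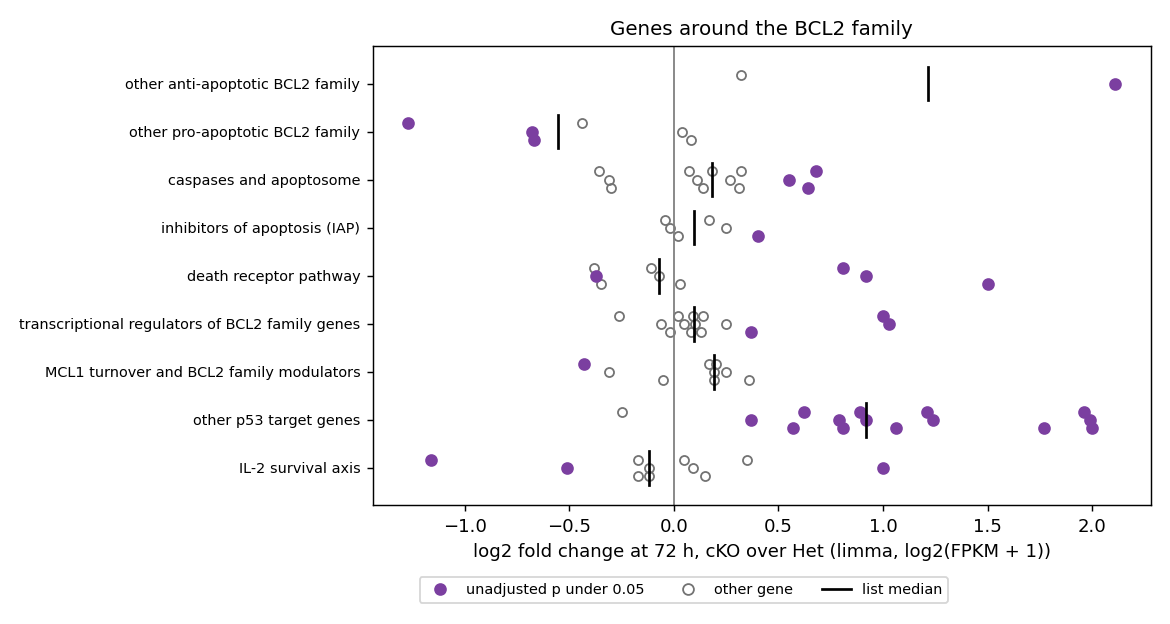
Log2 fold change at 72 h (limma, cKO over Het) of every tested gene of the 9 lists, with filled purple points for an unadjusted p under 0.05 and a black bar for the list median. The p53 targets lie mostly to the right with a median of 0.92, the further pro-apoptotic genes have a median of -0.55, and the medians of the other lists of more than 2 genes lie between -0.12 and 0.19.

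The genes most like Bcl2l1 over the 6 libraries were Bcat1, Egr1 and Psd, with a root mean square difference of 0.097, 0.102 and 0.104 in log2(FPKM + 1) centred within each table, among 9274 genes averaging 5 FPKM or more. Egr1, an immediate early gene, was at 17.7 and 26.1 FPKM at 48 h, and the 72 h values were 4.41 and 2.32 in Het against 24.9 and 8.21 in cKO, so it had the low 72 h Het values of Bcl2l1. The genes most like Bbc3 were Plk2, Ltf and Ptp4a3 (0.145, 0.191 and 0.199). Plk2, a kinase gene, had 48 h values of 6.47 FPKM (Het 1) and 10.9 (cKO 2) and 72 h values of 3.15 and 13.0 in replicates 1 and 2 and 2.58 and 8.57 in replicates 3 and 4, higher in cKO in all 3 pairs as Bbc3 was. Ltf is on the list of neutrophil markers and was at 21.4 to 43.5 FPKM in the 3 Het libraries, at 102 and 107 in cKO 2 at 48 h and 72 h and at 75.3 in cKO 4. In Het 3 and cKO 4, where Ltf was at 21.4 and 75.3 FPKM, the neutrophil markers S100a8, S100a9, Camp and Lcn2 were at 0. The part of neutrophil RNA in the likeness of Ltf to Bbc3 was not tested.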

How the data were processed

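Per the labels' protocols, library construction used a SMART-Seq v4 kit. The authors deposited FPKM in 2 tables of 47427 and 47347 rows, and per the submitters' processing notes the tools were TopHat2 2.0.12, Bowtie2 2.2.3 and HTSeq 0.6.1 with build mm9. No annotation, gene length or strand setting was given in the labels. The passage on sorting gives both genotypes as Foxp3Cre Noc4l+/fl, so genotypes were taken from each library's own title. Rows without an Ensembl ID were not used, and 46488 of 47069 shared IDs matched a symbol. Depth was estimated from whole-fragment steps of low FPKM, of which 86.6% to 87.6% were whole within 0.02 (3.24% to 3.56% with lengths scrambled).

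Values were analysed as log2(FPKM + 1) for genes averaging 1 FPKM or more, with limma 3.58.1 in R 4.3.3 (moderated variances with a trend), the table as a term, and Benjamini-Hochberg adjustment over all genes. The fits were tested on simulated data. Alternatives covered the pseudocount, filter, scaling, variance trend, table term, replicate block and each library left out. Members and lists were chosen with earlier results of these data known. Named genes were all members, up to 4 per list with a mean of at least 5 FPKM and the smallest p at 72 h, and the 3 genes most like the anti-apoptotic and the BH3-only member with the largest 72 h difference. Of the genes this rule names, 1 is not reported here. Tables and figures used Python 3.11.15, pandas 2.3.3, numpy 2.4.6 and matplotlib 3.10.9.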

Additional observations from a re-analysis of the deposited data

How the results depend on the processing

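Members under an unadjusted p of 0.05 numbered 5 at 72 h, 4 over both times, 3 for time and 2 for the interaction. At 72 h, every value with 1 library left out also drops the table term, so both choices differ there. Such a fit leaves 1 library in a genotype, and the spread within that genotype is then unmeasured. With 1 library left out the counts were 2 to 4, 3 to 5 and 1 to 5 for the first 3, and testing all genes with no filter gave 1 for the interaction. Genes past an adjusted p of 0.05 at 72 h were 8 with no filter and 0 to 608 with 1 library left out and no table term (223 without cKO 2). Over both times they were 0 to 7. For time the 3 became 1 with a pseudocount of 5, 0 with no filter and 0 to 4 with 1 library left out. With the replicate number as a block, which shares only a number between the times, 0 genes passed for time. The check of pairing was not possible with 1 library per genotype at 48 h. At 48 h, the 30 genes at least 2-fold lower were 13 with a pseudocount of 5. With each library centred on its median, genes under an unadjusted p of 0.05 at 72 h split into 886 higher and 1243 lower, against 1286 and 873, and with 1 library left out and no table term they numbered 491 to 2488. Over both times they numbered 723 to 2160 against 1650, and for time 793 to 2440 against 1374.

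Bcl2, Bcl2l1, Bax, Bbc3, Bid and Pmaip1 kept their direction at 72 h in all alternatives run. Other signs turned, and the cause was not tested. At 72 h, Mcl1 was -0.04 with median centring, -0.30 to 0.41 with 1 library left out and no table term and -0.03 within replicates 3 and 4 alone. Bak1 ranged from -0.36 to 0.83 and Bcl2l11 from -0.25 to 0.04 with 1 library left out and no table term. In those fits Bak1 was -0.25 without cKO 2 and Mcl1 -0.21 without cKO 4. Bcl2l11 was 0.14 within replicates 1 and 2 alone, and Bad was -0.05 with quantile normalization or median centring. Over both times, Bcl2l11 was -0.01 as TPM, -0.04 with quantile normalization, -0.06 with median centring and without Het 1 or cKO 2 at 72 h, and ranged from -0.10 to 0.18 with 1 library left out. For time, with 1 library left out, Mcl1 ranged from -0.12 to 0.17, Bax from -0.62 to 0.17, Bak1 from -0.05 to 0.16 and Bid from -0.57 to 0.02. The interaction of Pmaip1 was 0.01 with a pseudocount of 5 and 0.03 as TPM, and Bak1 at 48 h had a log2 ratio that rounds to 0.0, below 0, as TPM.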

Other observations

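The interleukin 2 pathway, which sustains regulatory T cells and their BCL2 and MCL1 levels, was mixed at 72 h, with 5 of 11 genes higher and 6 lower in the libraries labelled cKO and a median log2 fold change of -0.12. The cytokine feedback inhibitor Socs3 had 337 FPKM in Het 1 and 736 in Het 3, against 120.4 in cKO 2 and 412 in cKO 4, and stood at -1.16 ± 0.20 on the log2 scale (SE, limma adjusted p = 0.152). It had been at 83.0 and 106 FPKM at 48 h, so that, as for Bcl2, the 72 h Het value was the higher one within each table. The kinase gene Jak3 was at 237 and 344 FPKM in Het, against 152 and 263 in cKO (-0.51 ± 0.14, SE), and Socs1 stood at 0.35 ± 0.13 (SE). The receptor chains Il2ra, Il2rb and Il2rg, named after their values were seen, stood at -0.17 ± 0.13, -0.12 ± 0.12 and 0.09 ± 0.12 (SE).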
